A study of Homo sapiens with 6 samples.

Results

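Tight clusters of CTCF regions were described as runs of neighbouring peaks along chromosomes 1 to 22 of HCT-116, an established line of human colon cancer cells. The compared populations were the clones D3 and E4, both given in the labels as carrying a mutation of CTCF, and wild-type cells (WT), and none had been treated. The labels do not say which sequence was mutated, while the title of the series refers to a distal CTCF binding site and to WNT-dependent gating of MYC. Each population had 1 CTCF chromatin immunoprecipitation library and 1 list of broad peaks, and D3 and E4 are 1 clone each, so nothing below has a replicate check and a clone cannot be told apart from its library. Merging the overlapping peaks of D3, E4 and WT gave 58351 regions. Regions were joined into a chain where the gap to the next was 5000 bp or less, and chains of 4 or more regions were kept. These numbered 259 and held 1101 member regions, and the other 57250 regions lay alone or in runs of 2 or 3. The positions of peaks in all 3 lists chose the members, so the counts of calls are a description of the chosen set.

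CTCF is a zinc-finger protein that binds a long, well-defined DNA motif and halts the loop-extruding cohesin complex. Single sites act as loop anchors or insulators, and groups of neighbouring sites are known from gene clusters such as the HOX genes, the imprinted H19 and IGF2 domain and the antigen receptor loci. Some promoters also carry a CTCF site close to the start of transcription.

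Promoter sequences show what DNA lies where a gene start falls at a chain member. Gene starts were taken from 90 picked gene positions and not from a full annotation, and only 47 of the 259 chains overlapped such a gene. Of these picked starts, 21 lay within 1 kb of a member and had a 300-base promoter in RefSeq. These promoters (GRCh38.p14) run from 250 bases before to 50 bases after the start, written on the strand of the gene. The 21 therefore do not stand for all gene starts at members. The core letters of the CTCF motif were searched on both strands as CC, any 3 bases, AG, any 2 bases and GGC, which reads from the other strand as GCC, any 2 bases, CT, any 3 bases and GG. They occurred in 5 of these 21 promoters and in 3715 of all 35116 promoters (10.6%). All 5 are printed with the matches in capitals, followed by CDK3, whose start lies within 1 kb of one of the strongest members and whose promoter holds no match. WDR38 encodes a WD-repeat protein, NOL3 an inhibitor of apoptosis, HBEGF a growth factor of the EGF family, PLCG2 a phospholipase of immune cell signalling, DUSP2 a phosphatase of MAP kinases and CDK3 a cyclin-dependent kinase. The genes lie on the plus strand except HBEGF and DUSP2.
WDR38 promoter: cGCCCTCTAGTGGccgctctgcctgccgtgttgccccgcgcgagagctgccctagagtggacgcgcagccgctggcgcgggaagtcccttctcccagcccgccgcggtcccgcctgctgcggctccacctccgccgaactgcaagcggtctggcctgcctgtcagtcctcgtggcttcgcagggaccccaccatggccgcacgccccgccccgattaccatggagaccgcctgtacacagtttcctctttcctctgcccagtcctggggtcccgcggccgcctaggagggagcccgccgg
NOL3 promoter: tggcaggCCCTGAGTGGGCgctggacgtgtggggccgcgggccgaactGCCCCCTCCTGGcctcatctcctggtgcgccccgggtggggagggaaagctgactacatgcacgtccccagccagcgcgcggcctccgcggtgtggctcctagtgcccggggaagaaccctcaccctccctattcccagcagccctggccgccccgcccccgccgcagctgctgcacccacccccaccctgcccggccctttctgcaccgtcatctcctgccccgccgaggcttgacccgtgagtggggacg
HBEGF promoter: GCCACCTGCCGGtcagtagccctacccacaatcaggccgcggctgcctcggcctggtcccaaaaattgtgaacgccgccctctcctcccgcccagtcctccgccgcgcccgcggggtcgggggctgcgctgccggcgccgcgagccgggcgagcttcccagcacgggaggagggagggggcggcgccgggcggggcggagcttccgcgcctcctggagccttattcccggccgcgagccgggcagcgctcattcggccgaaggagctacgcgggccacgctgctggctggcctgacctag
PLCG2 promoter: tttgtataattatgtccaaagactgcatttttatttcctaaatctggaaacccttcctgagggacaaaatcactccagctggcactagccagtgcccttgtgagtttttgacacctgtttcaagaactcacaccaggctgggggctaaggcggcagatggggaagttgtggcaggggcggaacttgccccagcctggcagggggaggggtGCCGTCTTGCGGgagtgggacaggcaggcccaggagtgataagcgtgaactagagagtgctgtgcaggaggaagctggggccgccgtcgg
DUSP2 promoter: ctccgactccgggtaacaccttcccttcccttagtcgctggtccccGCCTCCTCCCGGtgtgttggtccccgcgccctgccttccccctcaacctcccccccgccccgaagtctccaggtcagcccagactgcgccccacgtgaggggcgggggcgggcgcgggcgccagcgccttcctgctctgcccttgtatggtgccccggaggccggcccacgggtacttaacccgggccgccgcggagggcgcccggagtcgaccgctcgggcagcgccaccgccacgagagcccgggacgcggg
CDK3 promoter: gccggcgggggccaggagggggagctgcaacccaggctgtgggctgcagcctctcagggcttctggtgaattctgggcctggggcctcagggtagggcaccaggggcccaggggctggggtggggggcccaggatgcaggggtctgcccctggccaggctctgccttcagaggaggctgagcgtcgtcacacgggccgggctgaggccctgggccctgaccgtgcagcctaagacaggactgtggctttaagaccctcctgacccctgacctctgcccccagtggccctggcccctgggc
The match in WDR38 starts at base 2 and that in HBEGF at base 1, at the far end from the gene. NOL3 holds 2 matches, which do not overlap, the first from base 8. In PLCG2 the match starts 40 bases before the start of transcription and in DUSP2 204 bases before it. The match is a description of letters, and no peak was mapped to the base.

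The members at these starts differed widely in strength. Strength is given as the fold enrichment of a peak that the authors deposited, whose background is not stated in the sources used here. It is also given as the percentile of that fold within its own list, because folds from different libraries are not on a common scale. The member at WDR38, chr9:127614419-127616172, had a fold of 25.1 in D3, of 23.2 in E4 and of 11.3 in WT, at the 99.7th, 99.7th and 97.1st percentile of the lists. At NOL3 the folds were 12.01 in D3, 7.07 in E4 and 7.17 in WT. At HBEGF they were 8.23 in D3, 12.2 in E4 and 7.82 in WT. All 3 lists called these members, and in WT all of them lay above the 77th percentile.

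The member at the PLCG2 start, chr16:81771209-81772386, had a fold of 12.05 in D3, of 11.2 in E4 and of 10.8 in WT. The member taken for DUSP2, chr2:96809742-96810146, was weak by comparison. D3 alone called it, with a fold of 3.95 at the 19.6th percentile. The next region of the chain, chr2:96810975-96811233, lay 828 bp further on. WT alone called that one, with a fold of 3.23 at the 4.06th percentile. Gene positions were known to the nearest kb only, so which of these regions lies at the DUSP2 start was not determined. At CDK3 the folds were 13.2 in D3, 18.5 in E4 and 16.2 in WT, which in WT put it at the 99.8th percentile, although its promoter lacks the searched letters in this window.

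Most chains barely met the rule. Of the 259 chains, 211 had 4 regions, 37 had 5, 8 had 6, 2 had 7 and 1 had 10. Below the threshold stood 1014 runs of 3, 5928 pairs and 42352 single regions. Chains spanned 7454 to 44576 bp with a median of 13571 bp, and together they covered 3664 kb.

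Gaps between neighbouring members were mostly above 1000 bp, but merging removed overlaps and the rule capped gaps at 5000 bp. Gaps between other regions were not compared. The 842 gaps within chains had a median of 2808 bp and quartiles of 1781 and 3737 bp, and 18 of them were under 1000 bp. The widest gap inside a chain was 4997 bp and the narrowest just outside one was 5020 bp. Inside chains 19 gaps lay between 4900 bp and the limit, and 3 gaps next to a chain lay between the limit and 5100 bp. Members were somewhat wider than the other regions, with a median width of 1053 bp against 920 bp.

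A broad peak can be split or joined by the caller, which changes the number of regions. In 26 members some list had 2 or more peaks under 1 merged region: 6 members for D3, 10 for E4 and 20 for WT. Nearly all members therefore held a single peak of each list that called them.

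The longest chain lay at the T cell receptor gamma locus (TRG). Its 10 regions spanned chr7:38370168-38414743, at the end of the locus that holds the variable gene segments, of which a rearranging T cell joins one to a joining segment. TRG is an antigen receptor locus and HCT-116 is an epithelial line. RefSeq (GRCh38.p14) lists 9 variable segments and pseudogenes as neighbours there, in the order TRGV8, TRGV7, TRGV6, TRGV5P, TRGV5, TRGV4, TRGV3, TRGV2 and TRGV1. Which member lies at which segment was not determined, because no gene annotation on the build of the files was used.

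D3 called 10 of these regions, E4 9 and WT 10. In D3 the strongest was the second, chr7:38374544-38376212, with a fold of 26.1 in D3, of 16.7 in E4 and of 11.9 in WT. The seventh, chr7:38397854-38399483, had 20.2 in D3, 17.6 in E4 and 12.97 in WT. It ranked first of the chain in E4 and WT. Both stood above the 97th percentile of every list.

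The fourth, the fifth and the sixth regions resembled one another. They had folds of 9.66, 8.20 and 9.57 in D3, of 7.67, 7.45 and 8.48 in E4 and of 5.63, 5.36 and 6.55 in WT. The weakest in each list was an outer or the third region: the last one had folds of 8.05 for D3 and 4.11 for E4, and the third 3.57 for WT. E4 lacked a peak at the first region, where D3 had a fold of 10.01 and WT 3.88. All 10 members lay above the median fold of the D3 list, and 7 each above those of E4 and WT.

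**Figure D1:**
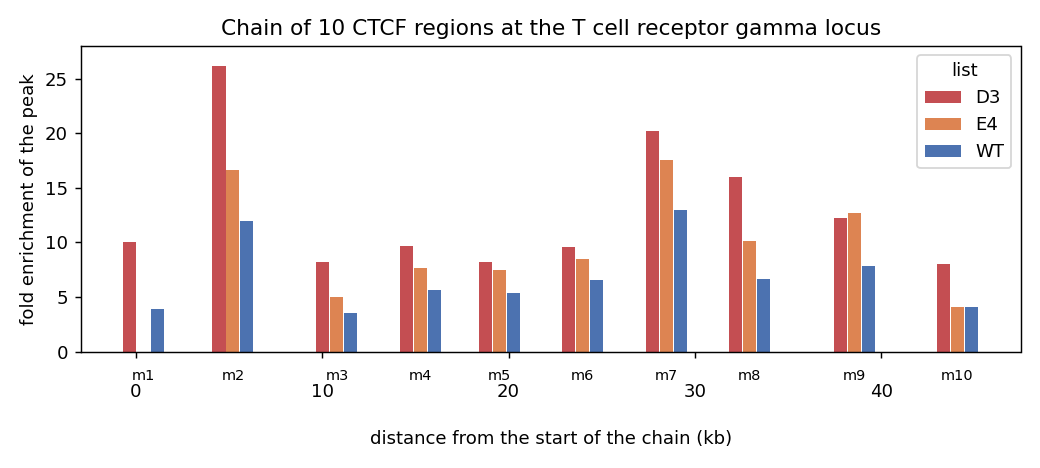
Fold enrichment of the peaks (vertical axis, ratio as deposited) in the 10 regions of the TRG chain (m1 to m10) against distance from the start of the chain in kb, with D3, E4 and WT bars side by side at each region. The second and seventh regions stand out in all 3 lists, the bar of E4 is missing at the first, and bar heights are comparable within a list only.

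The TRG regions were also the most evenly spaced of the long chains. Distances between the midpoints of neighbours ran from 4256 to 5618 bp, with a mean of 4851 bp and a coefficient of variation of 11.6%. In the other 10 chains of 6 or more regions that coefficient was 18.8% to 47.1%. The variable segments are near-copies of one another, and how reads that match several copies were treated is not stated in the sources used here.

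A chain of 7 regions came next in length. In PLCG2 the chain chr16:81906978-81936676 had 6 regions called in D3, 5 in E4 and 6 in WT. Its first 5 regions were in all lists, with folds of 6.42 to 16.02 in D3, 4.63 to 14.8 in E4 and 5.22 to 8.88 in WT. The sixth was called in D3 alone and the seventh in WT alone, both at or below the 3.01st percentile of their lists. Another chain, chr16:81755292-81772386, ended within 1 kb of the start of PLCG2, and its last region is the one described above.

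Of the chains of 6 regions, that at the activin subunit genes INHBC and INHBE and the Hedgehog pathway factor gene GLI1 was the most compact, with 6 regions in 12801 bp. Its 4 shared regions had folds of 14.5, 10.1, 14.95 and 12.9 in D3, of 15.8, 10.9, 11.6 and 14.3 in E4 and of 10.7, 5.09, 7.61 and 6.56 in WT. All 4 lay in the upper part of the D3 and E4 lists, at the 77.8th percentile or above. The other 2 regions were called in D3 alone, with folds of 3.10 and 2.76.

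At NBL1, which encodes a secreted BMP antagonist, D3 called 6 regions, E4 5 and WT 5. At ITGB4, the integrin subunit of hemidesmosomes, D3 called 5 of 6, E4 6 and WT 4, and the fourth region was in E4 alone with a fold of 3.22. Several long chains lay outside the gene windows used: one between ZBTB38 and RASA2 with 6 regions in D3, 4 in E4 and 4 in WT, one between CPA3 and GYG1 with 6, 5 and 4, and one between PROK1 and CYMP with 6, 6 and 4. The last was the one of these where both clones called 2 more regions than WT, with folds of 5.10 and 4.61 in D3 and of 4.76 and 5.89 in E4.

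The chain of 6 regions at HBEGF and the anion exchanger gene SLC4A9, chr5:139724847-139753259, had 6 regions called in D3, 5 in E4 and 5 in WT. It was picked after its values were seen. The fourth region was the strongest in D3 and WT, with folds of 17.9 and 11.2, and the third in E4 with 14.1. Every one of its shared regions lay above the 65th percentile in D3, and its single unshared region at the 12.3rd.

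**Figure D2:**
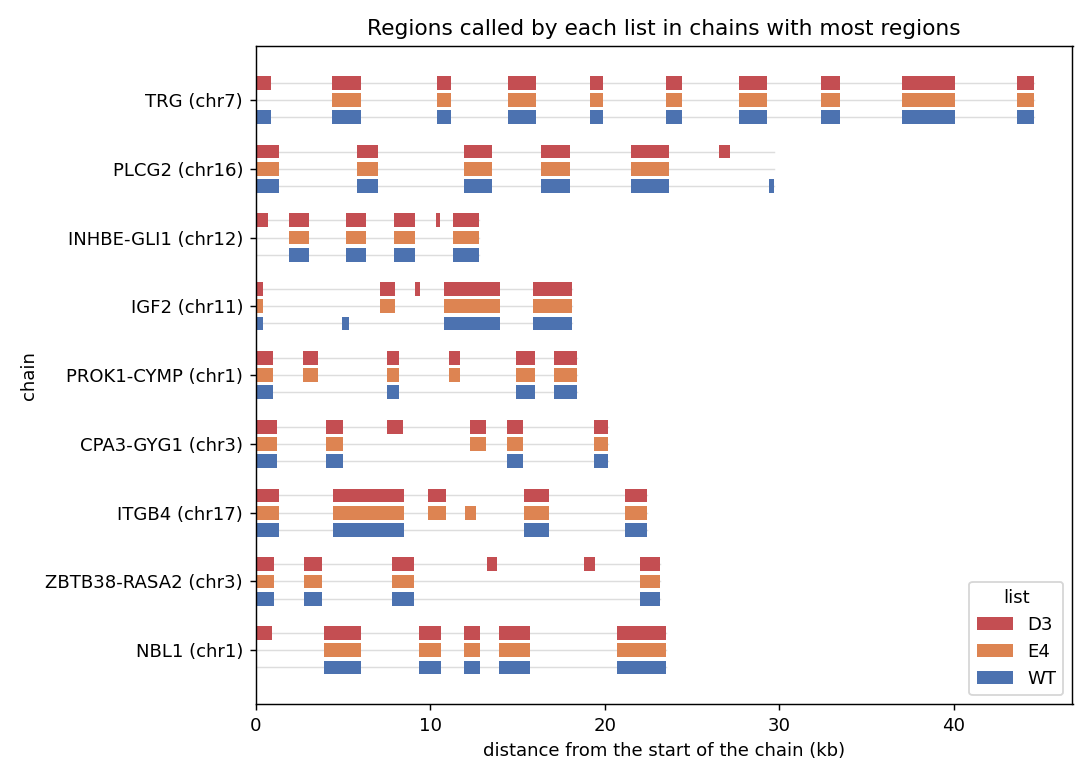
Of the 10 chains with most regions (ties resolved by shorter span), 9 are shown as rows, drawn to scale from the start of each chain in kb, where each coloured bar is a merged region that the list calls (D3 above, E4 in the middle, WT below). Wide regions are mostly present in all 3 rows, and most of the regions missing from 1 or 2 rows are narrow.

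Windows of gene clusters and other gene families, several of them known for CTCF sites, were also looked at. Of 33 such windows, 5 held a chain or part of one. They were the HOXA cluster, the H19 and IGF2 domain, the KCNQ1 and CDKN1C domain, the immunoglobulin lambda locus (IGL) and the zinc-finger genes of 19q13.4, with 22 member regions in the windows. Members made up 2.51% (1.58 to 3.78) of the 876 regions in the windows, against 1.89% of all regions. TRG, described above, was not among the windows. The other windows often held many regions at wider spacing. The MHC had 173 regions and the protocadherin cluster 32, the HOXB cluster 12, and the longest run in each of them was 3.

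In HOXA, the chain at HOXA7 and HOXA9, developmental transcription factor genes, had 4 regions called in D3, 3 in E4 and 5 in WT. Its first region, chr7:27189890-27191176, had a fold of 16.97 in D3, of 9.66 in E4 and of 8.20 in WT. The third had 14.01 in D3, 16.8 in E4 and 8.35 in WT. It was the strongest of the chain in both E4 and WT. WT alone called the second region, 248 bp wide, with a fold of 3.001 at the 0.628th percentile. E4 lacked the fifth as well, where D3 had 4.10 and WT 3.92.

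The chain at the imprinted growth factor gene IGF2, chr11:2160322-2178459, had 5 regions called in D3, 4 in E4 and 4 in WT. Its 2 wide regions were the strong ones: folds were 10.8 and 6.14 in D3, 11.6 and 10.0 in E4, and 5.38 and 5.47 in WT. The other 4 regions had folds of 3.18 to 4.50 in the lists that called them. At CDKN1C, an imprinted gene for a cell cycle inhibitor, D3 called 3 of 4 regions, E4 4 and WT 3, and the 3 shared regions had folds of 7.58 to 12.2 in D3, 10.1 to 12.99 in E4 and 7.25 to 7.67 in WT.

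At IGL, D3 called 4 regions, E4 4 and WT 3. The first, chr22:23026932-23030939, was 4008 bp wide and had a fold of 17.3 in D3, of 8.74 in E4 and of 6.43 in WT. The chain of 19q13.4 lay between NLRP5 and ZNF787, with 4 regions called in D3, 3 in E4 and 4 in WT.

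The members with the highest fold of each list lay in few places. A chain near the end of chromosome 12, chr12:76269-94799, held the strongest member of D3 and of WT in its last region, with a fold of 30.6 in D3, of 16.4 in E4 and of 19.6 in WT. In E4 the strongest of all members was that at WDR38, described above, in a chain that also covers the ribosomal protein gene RPL35. No gene of the windows used lay at the chromosome 12 chain.

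Next in WT were the member at CDK3 and one at PRMT1, which encodes an arginine methyltransferase. The chain at BCL2L12 and PRMT1 had all 4 regions in every list. The third region, chr19:50183417-50184731, had a fold of 24.3 in D3, of 20.8 in E4 and of 16.02 in WT. The fourth had 5.21 in D3, 8.32 in E4 and 3.06 in WT. In WT a strong and a weak region thus stood within 3 kb of each other, at the 99.8th and 1.12th percentile. The fourth region lay at the 37.9th percentile in D3 and at the 69.1st in E4.

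In E4 the members next in fold were at the mitochondrial ribosomal protein gene MRPL38 and at FLYWCH1. The MRPL38 member had 13.1 in D3, 22.5 in E4 and 12.7 in WT, the FLYWCH1 member 12.3 in D3, 21.6 in E4 and 10.4 in WT. The MRPL38 chain had 3 regions called in D3, 2 in E4 and 4 in WT.

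D3, which had the longest list, called the most members, and E4 and WT called nearly as many as each other. D3 called 1037 of the 1101 members, or 94.2% (exact 95% interval 92.6 to 95.5), against a background of 95.9% of all merged regions. E4 called 752, or 68.3% (65.5 to 71.0), against 64.9%. WT called 768, or 69.8% (66.9 to 72.5), against 63.6%. Members thus lay slightly below the background in D3 and slightly above it in E4 and WT (below it at a gap limit of 2000 bp, which left 21 members), and the intervals cover counting error only. All 3 lists called 656 members, or 59.6% (56.6 to 62.5), against 54.3%.

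Members called in a single list numbered 301, or 27.3%, against 29.8% of all regions. D3 alone called 238 of them (21.6%, background 26.0%), E4 alone 20 (1.82%, background 1.44%) and WT alone 43 (3.91%, background 2.42%). D3 and E4 without WT shared 75 members (6.81%, background 8.95%), D3 and WT without E4 68 (6.18%, background 6.69%), and E4 and WT without D3 1 (0.0908%, background 0.218%). Most shares were near the background, and D3-only members were the commonest unshared kind, as among all regions.

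D3 called every region of 203 chains (78.4%), E4 of 51 (19.7%) and WT of 54 (20.8%). In 26 chains (10.0%) all 3 lists called every region, and 7 of these lay on chromosome 17. In 7 chains no region was called in all 3 lists, in 34 a single one was, and 85 and 89 chains had 2 and 3 of them.

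The 26 complete chains were looked at after their values were seen. They included chains at the clotting factor gene VWF, the nitric oxide synthase gene NOS2 and the calcium channel gene CACNA1G. Others lay at the unconventional myosin gene MYO7A and at the growth hormone gene GH2 together with CSH1. At GH2 and CSH1 the second region was the strongest, with 14.3 in D3, 14.2 in E4 and 7.38 in WT. At the tyrosine kinase gene TNK2, 3 of 4 regions had folds of 16.4 to 18.9 in D3, 15.6 to 20.6 in E4 and 9.56 to 11.7 in WT, and the same region was the weakest in every list. Full agreement of calls did not need strong peaks: at TWF2, which encodes an actin-binding protein, 3 of 4 regions had folds of 3.17 to 4.63 in D3, 3.66 to 4.59 in E4 and 3.91 to 4.40 in WT.

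The list that took no part in building a chain gives calls that did not choose the members. Chains built from the E4 and WT lists numbered 107, and D3 called 92.7% of their 449 regions (89.8 to 94.9), against 94.6% of the other regions of those lists. Chains built from D3 and WT numbered 243, and E4 called 67.9% of their regions (65.0 to 70.8), against 64.4% elsewhere. WT called 68.0% (64.9 to 71.0) of the regions in the 222 chains built from D3 and E4, against 62.7% elsewhere. For E4 and WT the share in chains was the higher one. For E4 the interval in chains began at 65.0, just above that of the other regions (64.0 to 64.8). For WT it began at 64.9, above that of the other regions (62.3 to 63.1). These intervals count each region as independent, although regions were grouped in chains, and hold no spread between libraries. Their separation is therefore not a test of a difference.

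Among regions that both building lists called, the gap was narrower. D3 called 337 of 337 such regions in chains and 99.6% of the others, E4 90.6% and 89.0%, and WT 89.5% and 85.8%. Where both building lists had a peak, the remaining one mostly did as well, inside chains and outside them.

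Peaks in chains ranked higher than other peaks of the same list. The median fold percentile of members was 55.8 in D3, 62.1 in E4 and 58.0 in WT, against 49.9, 49.9 and 50.1 for the other regions. Among regions called in all 3 lists the medians were 75.6, 68.4 and 66.4 in members, and 71.1, 57.8 and 56.8 elsewhere. Members that a single list called were weak, with medians of 15.6 in D3, of 7.65 in E4 and of 4.06 in WT, and so were such regions outside chains, with 17.9, 7.49 and 7.08. The highest D3-only member reached the 57.6th percentile of its list.

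The level moved with the length of the chain. In D3 the median percentile was 48.8 for single regions, 53.2 for pairs, 55.2 for runs of 3, 55.03 for chains of 4 to 5 and 68.5 for chains of 6 or more. In E4 these were 48.2, 54.0, 58.1, 61.1 and 70.0, and in WT 48.8, 53.1, 57.2, 57.9 and 59.3. Single regions had the lowest median in every list. The share of regions in all 3 lists was 52.8% for single regions, 57.8% for pairs, 59.5% for runs of 3, 58.7% for chains of 4 to 5 and 72.2% for longer ones. The last group holds 72 regions in 11 chains, 10 of them in the TRG chain, so its values are loose.

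**Figure D3:**
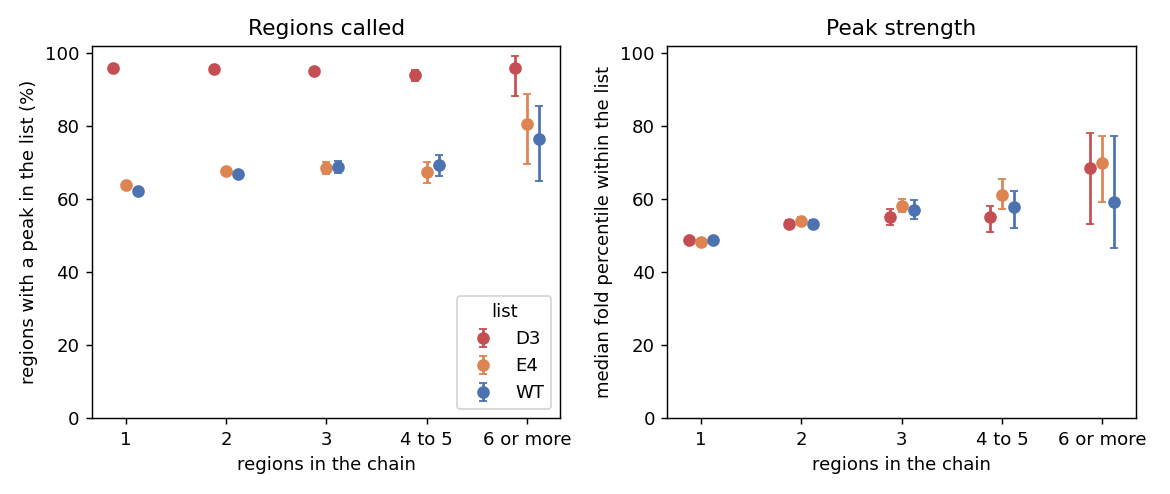
Percent of merged regions with a peak in D3, E4 and WT (left) and median percentile of fold within the list (right) against the number of regions in the chain. Bars are 95% intervals over regions (exact binomial for shares, order statistics for medians) that cover no spread between cultures; D3 stays near 95% throughout, and the median percentile is lowest for single regions in all 3 lists.

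Within a chain, strength was uneven. The member of highest −log10 q was taken as the strongest of its chain in each list, which by construction sets it above the others. Its median fold percentile was 87.5 in D3, 86.9 in E4 and 83.9 in WT. That of the other members called was 41.0, 44.8 and 41.3. The fold of the strongest was 1.35 times that of the next in D3, 1.39 times in E4 and 1.35 times in WT, by the median over chains.

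Presence in all lists goes with strength, so this choice largely sets it as well. The strongest member was called in all 3 lists in 246 of 259 chains for D3 (94.98%), in 249 of 256 for E4 (97.3%) and in 244 of 257 for WT (94.9%). Of the other members called, 52.7%, 82.1% and 80.6% were. The same member was the strongest in all 3 lists in 159 of the 255 chains with a peak in each (62.4%). It lay inside the chain and not at either end in 48.3% of chains in D3, 47.3% in E4 and 47.9% in WT, close to the share of inner positions in a chain of 4.

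**Figure D4:**
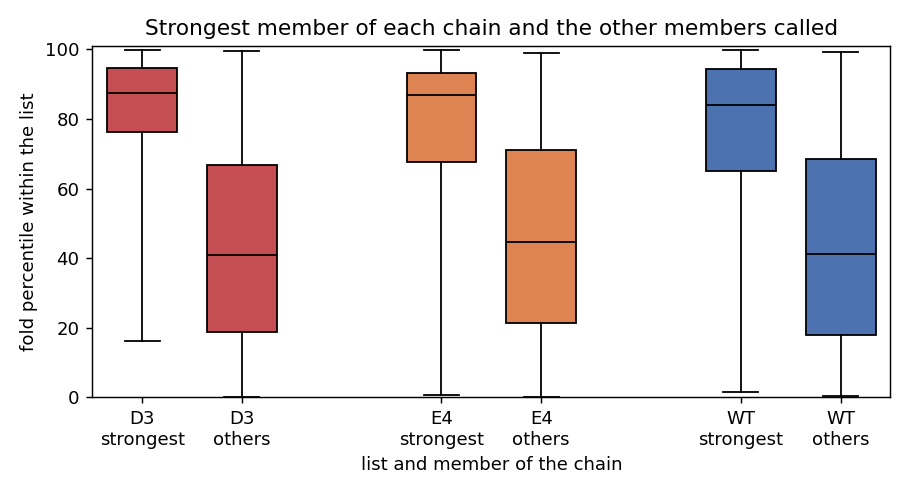
Fold percentile within the list (vertical axis) of the strongest member of each chain and of the other members called, for D3, E4 and WT. Boxes span the quartiles with the median as a line and whiskers reach the lowest and highest member; the medians of the strongest lie between 83.9 and 87.5 and those of the others between 41.0 and 44.8, and the choice of the strongest fixes this order.

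In the chains where the populations differed most, the regions that some lists lacked were mostly weak, and regions that all lists called included strong ones. Some regions that E4 lacked lay above the median of the D3 list. In the chain between OTUD1 and KIAA1217 the second region had a D3 fold of 7.18, at the 57.7th percentile. In the chromosome 13 chain described below, the second region had a D3 fold of 6.42, at the 50.8th percentile. D3 called more regions than WT in 177 of 259 chains, as many in 65 and fewer in 17, and D3 also had the longest list. E4 called more than WT in 57 chains, as many in 131 and fewer in 71. The largest difference between lists in a chain was 4 regions, reached in several chains. At OTOG, the gene of an inner ear matrix protein, D3 called all 4 regions of chr11:17653430-17667266 and E4 and WT none. Their folds were 3.25, 3.40, 4.13 and 4.90, at the 6.15th to 34.0th percentile of D3. It was the 1 chain whose regions D3 alone called.

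E4 stood above WT by 3 regions in 1 chain, chr12:72655674-72666862, with 3 regions called in D3, 4 in E4 and 1 in WT. Folds there were 3.37 to 5.89 in D3 and 3.67 to 5.13 in E4, and the single WT peak had 4.99. At the lipid kinase gene PI4KA and TMEM191A, both clones called more regions than WT, 5 in D3 and 3 in E4 against 1 in WT. The shared region there was strong, with 16.1 in D3, 15.7 in E4 and 7.15 in WT. The regions that WT lacked had folds of 3.22 to 4.85 in D3 and 3.39 to 3.53 in E4.

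At the interferon-induced gene IFI6, D3 called 4 regions, E4 4 and WT 2. Its 2 shared regions had folds of 14.1 and 14.2 in D3, 10.9 and 11.7 in E4, and 6.27 and 9.26 in WT. Further chains with 5 regions in D3 against 2 in E4 and 2 in WT were those at SYBU, a gene for a protein of axonal transport, at MYO7B, LIMS2 and GPR17, and at chr1:662823-676283. In these 3 chains the regions that D3 alone called had folds of 2.91 to 5.73 and none exceeded the 43.7th percentile of its list.

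WT called more than both clones at RTP5, with 2 regions in D3, 2 in E4 and 4 in WT. Both extra WT regions had a fold of 3.42, at the 8.49th and 8.50th percentile, beside shared regions of 9.24 and 17.04 in D3, 6.29 and 13.38 in E4, and 7.23 and 8.17 in WT. At CD276, which encodes an immune checkpoint ligand, D3 called 4 of 5 regions, E4 3 and WT 5, and the region of WT alone, with a fold of 2.96, lay at the 0.384th percentile. Between PDE8A and AKAP13 the numbers were 4 in D3, 2 in E4 and 4 in WT. At chr13:114427122-114445512 they were also 4, 2 and 4, around a first region with a fold of 18.4 in D3, of 16.4 in E4 and of 7.78 in WT.

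The most compact chains were likewise weak in part. The shortest, 7454 bp at DAB2IP, which encodes a regulator of Ras, had 4 regions called in D3, 2 in E4 and 1 in WT, with folds of 3.43 to 6.63 in D3. At HFM1, a gene for a meiotic DNA helicase, the numbers were 4, 2 and 2 in 7512 bp. At MOV10L1, a helicase gene of the germline piRNA pathway, they were 4, 2 and 3 in 7927 bp, and its last region was strong, with 16.8 in D3, 8.81 in E4 and 10.5 in WT. A chain of 8389 bp at chr17:80186839-80195227 had 2 regions in D3, 2 in E4 and 3 in WT. The last of 8467 bp between PHF21B and NUP50 had 3 in each list.

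Chains were unevenly spread over the chromosomes. Chromosome 17 held 29, or 35.7 per 100 Mb, chromosome 19 held 16, or 27.1 per 100 Mb, and chromosome 22 held 12, or 23.4 per 100 Mb. As a share of the merged regions of the chromosome, members made up 4.27% on chromosome 22, 4.22% on chromosome 17 and 3.27% on chromosome 19. On chromosomes 4 and 6 they made up 0.627% and 0.620%. Chromosomes 17, 19 and 22 are known to be rich in genes, and gene density was not taken into account.

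**Figure D5:**
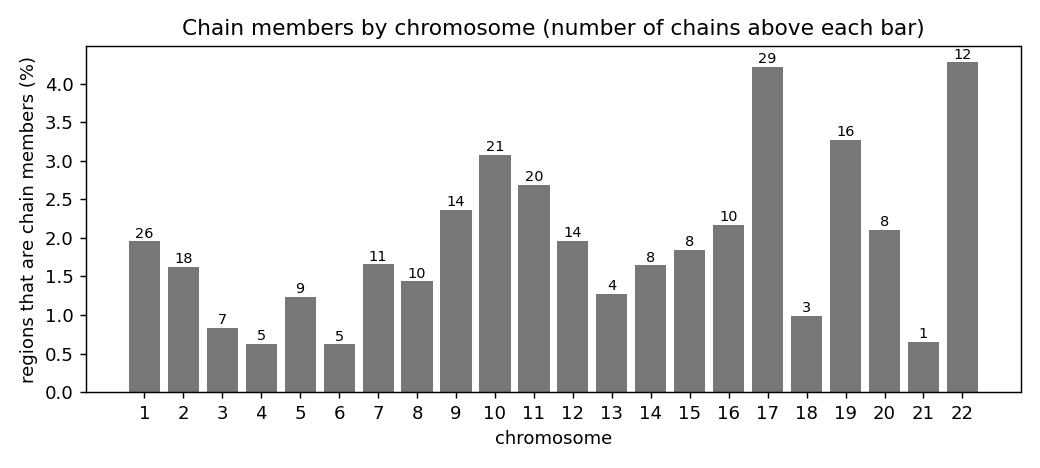
Percent of the merged regions of each chromosome that are chain members (vertical axis), with the number of chains above each bar. Chromosomes 17 and 22 stand above 4% and chromosomes 3, 4, 6, 18 and 21 below 1%.

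Chromosome ends held more than their share. Of the members, 186 (16.9%, 14.7 to 19.2) lay within 5 Mb of an end, against 9.85% of the other regions. Some chains also had another chain close by, and 5 pairs of neighbouring chains lay within 50 kb. The nearest pair was 8252 bp apart on chromosome 12, from the chain at TROAP, C1QL4 and DNAJC22 to that at SPATS2. The others were at TRADD and NOL3 on chromosome 16, at LCN15 and TMEM141 on chromosome 9, at RPTOR and CHMP6 on chromosome 17, and from chr17:72998328-73009323 to chr17:73050389-73066427.

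The pair on chromosome 12 joined unlike chains. At TROAP, C1QL4 and DNAJC22 all 4 regions were in every list, with folds of 10.996 to 17.2 in D3, 10.8 to 16.4 in E4 and 7.12 to 10.5 in WT. At SPATS2, D3 called 3 of 4 regions, E4 2 and WT 2, and its first region alone was shared by all lists. The last region at TMEM141 was among the strongest members, with 24.8 in D3, 21.1 in E4 and 13.1 in WT.

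Some chromosome arms stood apart in these libraries, in the sense that clone peaks had been found missing or lower there. They were the distal parts of chromosome 8 from 85 Mb, chromosome 17 from 50 Mb, chromosome 10 from 110 Mb and chromosome 16 from 80 Mb, and were chosen on these data. They held 30 chains with 129 members, of which D3 called 86.8%, E4 65.1% and WT 76.0%, against 88.4%, 57.7% and 72.7% of all regions of these parts. In the other 229 chains the shares were 95.2%, 68.7% and 68.9%, against 96.4%, 65.4% and 63.0% of all regions there. Among members the parts differed, with few chains in each. D3 called 24 of the 30 members on chromosome 8 and 85.2% of those on chromosome 17. It called 95.5% on chromosome 10 and 91.3% on chromosome 16, and no chain on either had fewer D3 than WT regions. Over all regions of these parts D3 called 89.0%, 88.3%, 87.5% and 88.1% in that order, so the parts were nearly alike there. The chains at PLCG2, ITGB4, MRPL38, CDK3 and SYBU lie in these parts. So do those at GH2 and CSH1, at RPTOR and CHMP6, the other close pair on chromosome 17, and chr17:80186839-80195227. The part of chromosome arms in the calls of a chain was not tested.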

How the data were processed

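CTCF chromatin immunoprecipitation libraries of D3, E4 and WT HCT-116 cells were used; the 3 libraries made without antibody were not analysed here. Build hg19, MACS2 2.2.7.1, bedtools 2.29.2, Picard 2.23.1 and CASAVA 1.8.2 are named, without a role, in the submitters' processing notes; aligner, caller settings and control are not given in the sources used here. Per library, the authors deposited 1 broad peak list, with a fold enrichment (ratio), a −log10 p and a −log10 q per peak. The score that the authors deposited was not used, nor was −log10 p. Read depth is unknown, and list length moves with it.

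Peaks of chromosomes 1 to 22 overlapping by 1 bp or more were merged, chained and described with Python 3 scripts, checked on simulated chains. Fold percentiles were taken within a list, at the region's peak of highest fold. Shares carry exact (Clopper-Pearson) 95% intervals for counting error, and there was no test. The members, gene windows and cluster windows were chosen with earlier results of these data known. Gene positions on hg19 come from general knowledge, to the nearest kb. In RefSeq (GRCh38.p14) 94 genes were found on the same chromosome, and 4 were dropped for their length. The kept genes were in the same order on all 16 chromosomes that held 2 or more of them. These gene positions are not a full annotation, and give no exon or intron. Named chains were the 10 longest, the 5 shortest, those of the 3 highest folds per list, those of the largest differences in calls, and those in cluster windows; 39 chains with 193 members met this rule. Chains named outside it are marked as picked after their values were seen, or are members of a close pair or lie at a printed promoter. Some chains that met the rule are not reported here.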

Additional observations from a re-analysis of the deposited data

Results flagged for a closer look

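The share of members called lay above WT in D3 and below WT in E4. D3 exceeded WT by 24.4 percentage points and E4 differed from WT by −1.45 points, so that D3 and E4 were 25.9 points apart. Over all merged regions D3 exceeded WT by 32.3 points and E4 by 31.0 points, so both gaps of D3 were smaller in members, and E4 stood 1.28 points above WT. Alternatives turned both directions in members. At equal list length D3 called 80.7% of members and WT 85.7%, against 82.6% and 81.5% of all regions. Past the stricter q limit E4 called 76.5% of members and WT 63.5%, against 65.5% and 51.8% of all regions. In chains of at least 6 regions E4 called 80.6% and WT 76.4%, against 64.9% and 63.6%. Over all regions E4 stood above WT in both of these last settings as well.

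The same arrangement, with D3 above and E4 below WT, was found in 29 chains, and none had the opposite one. D3 had the longest list and called fewer regions than WT in 17 chains only, so the opposite one had little room. Of the 29 chains, 5 met the rule for named chains. Between OTUD1 and KIAA1217 on chromosome 10 and between LRRC74A and IRF2BPL on chromosome 14, D3 called 4 regions, E4 0 and WT 1, so the clones differed by 4. Folds were 3.18 to 7.18 in D3 and 4.54 in WT in the first chain, and 3.09 to 3.77 in D3 and 3.52 in WT in the other. The region of 7.18 lay at the 57.7th percentile of D3 and the others below its median. At ASTL and DUSP2 the numbers were 4 in D3, 1 in E4 and 2 in WT, a difference of 3. At WDR38 and RPL35, and at MOV10L1, they were 4, 2 and 3, a difference of 2. None of these differences was tested, since each population had 1 library.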

How the results depend on the processing

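Among 36 alternatives 16 left the share or median inside its interval, or the number of chains within 1.5 times, and 20 moved. The number of chains was 5 with gaps of up to 2000 bp, 1194 with 10000 bp, 11 with 6 or more regions, 61 with a −log10 q of 5 or more and 114 with lists cut to 37735 peaks each. In that order without the 10000 bp setting, E4 called 61.9%, 80.6%, 76.5% and 84.7% of members (64.9%, 64.9%, 65.5% and 82.1% of all regions) and WT 61.9%, 76.4%, 63.5% and 85.7% (63.6%, 63.6%, 51.8% and 81.5%), so at 2000 bp, with 21 members, both lay below all regions. D3 called 95.8% with 6 or more regions, 99.6% with the stricter q and 80.7% at equal length (95.9%, 98.5% and 82.6% of all regions). All 3 lists called 52.4% with 2000 bp, 72.2% with 6 or more regions and 69.7% at equal length (54.3%, 54.3% and 65.7% of all regions). The median WT fold percentile of members at equal length was 63.2, against 50.2 over all regions. Built from single lists, chains numbered 204 in D3, 66 in E4 and 75 in WT. At equal length they numbered 55, 62 and 75. Beyond what the settings remove by construction, the cause was not tested. No paired analysis was possible because each group had 1 library. Read depth is not known, so the absence of a weak peak from a list is uncertain.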
